A study of Mus musculus with 8 samples.

Results

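The genes described here mark the tissues that line and fill the ventricles of the brain, which hold the cerebrospinal fluid. They comprise 15 genes of the choroid plexus epithelium, with Ttr as the defining marker, and 19 genes of motile cilia, with Foxj1 as the defining marker. Members were found by gene symbol in the deposited count table of 17613 genes, and Cfap126 was found by its identifier because the table lists it as 1700009P17Rik. This gave 31 of the 34 genes, namely all 15 of the choroid plexus and 16 of motile cilia, while Dnah5, Spag17 and Hydin were not analysed here. All 31 passed the filter on low counts, with at least 12 counts in every library, so that no defining marker was at 0 anywhere.

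The libraries came from the brain of C57BL/6 mice, 4 labelled Uhrf2 KO and 4 labelled WT, with polyadenylated RNA as the template. Uhrf2 encodes a nuclear reader of modified cytosines. The labels name neither the construction of the knockout allele nor the age of the mice, and they do not say whether each library comes from a separate animal. The p-values therefore measure the spread between these libraries, which may be technical. The labels also do not say how the brain was dissected, which matters for genes of structures as small as the choroid plexus. Levels are CPM, counts scaled to a common library size.

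The choroid plexus is a folded epithelium that hangs in the ventricles and secretes most of the cerebrospinal fluid through ion pumps, channels and water pores. It also releases transthyretin and other proteins into the fluid. The ventricle walls are covered by ependymal cells, whose motile cilia move the fluid by bending a shaft of microtubules with dynein motors, radial spokes and a central pair. The transcription factor Foxj1, together with factors of the RFX family, drives the genes of motile cilia. In RNA from a piece of brain, fewer cells of a type and less RNA per cell cannot be told apart.

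Uhrf2 was read first, because it is the gene that the labels name. It measured 86.4, 88.6, 88.4 and 91.8 CPM in the KO libraries, against 58.0, 47.7, 57.2 and 58.9 CPM in the WT libraries. It was thus higher in every library labelled KO, with a log2 fold change of 0.68 (Benjamini-Hochberg adjusted p = 5.45e-06, quasi-likelihood test of edgeR). This is the reverse of a lower level in the libraries labelled KO. Because the construction of the allele is not given, counts over the whole gene cannot check the labels. Every direction below rests on the labels as given. Library totals ran from 13550420 to 19065173 counts in KO and from 11891350 to 19773921 counts in WT. A count of 3 thus corresponded to between 0.152 and 0.252 CPM. The summed level of 8 neuronal and glial genes of brain tissue lay between 10780 and 11210 CPM in KO and between 10840 and 11040 CPM in WT libraries.

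Ttr, the thyroid hormone carrier that the choroid plexus secretes, was by far the most abundant of the 31 genes. Per kilobase of its longest coding transcript it averaged 743 ± 60.0 CPM in KO and 809 ± 116 CPM in WT libraries (SD, n = 4 each). The next choroid plexus gene in this order was Clic6, of the chloride intracellular channel family, at 7.31 ± 0.338 CPM per kilobase in KO and 7.08 ± 0.874 CPM per kilobase in WT. Slc13a4, a sodium-coupled sulfate transporter, followed at 5.87 ± 0.749 in KO and 6.09 ± 0.264 CPM per kilobase in WT. Kl, the membrane protein klotho that acts as a co-receptor for FGF23, had 5.58 ± 0.387 CPM per kilobase in KO and 6.27 ± 0.877 CPM per kilobase in WT. Slc13a4, Kl and Folr1, the folate receptor alpha, differed by less than the larger of their standard deviations. At the low end stood Steap1, of a metalloreductase family, with 1.35 ± 0.292 CPM per kilobase in KO and 1.51 ± 0.239 in WT, and Tmem72 with 0.225 ± 0.0254 in KO and 0.236 ± 0.0304 in WT. The transcript used for Tmem72 is annotated with 17152 bases, which lowers its value per length.

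The motile cilia genes spanned a narrower range per kilobase. Drc1, a subunit of the nexin-dynein regulatory complex that ties the microtubules of the shaft together, had 4.65 ± 0.316 CPM per kilobase in KO and 4.88 ± 0.437 in WT. Foxj1 had 5.07 ± 0.803 CPM per kilobase in KO and 4.45 ± 0.444 in WT. Rsph1, a protein of the radial spoke head, had 3.25 ± 0.586 CPM per kilobase in KO and 3.13 ± 0.372 in WT. The 2 heavy chains of outer arm dynein with values were near the bottom, Dnah11 at 0.774 ± 0.0813 CPM per kilobase in KO and 0.843 ± 0.143 in WT, and Dnah9 at 0.585 ± 0.0614 in KO and 0.540 ± 0.0531 in WT. Drc1 and Foxj1 differed by less than the larger of their standard deviations, and Rsph1 lay below both by more than that. Reads of overlapping genes cannot be separated here, because the strand setting of the counting is not given in the sources used. This touches Dnah11, which shares 642 exonic bases with the gene Cdca7l on the opposite strand, and Iqcg, which shares 2965 with Lrch3. The table's Spag6 is the gene on chromosome 16 that GENCODE M21 names Spag6l, and reads of its near copy may be split between them.

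**Figure D1:**
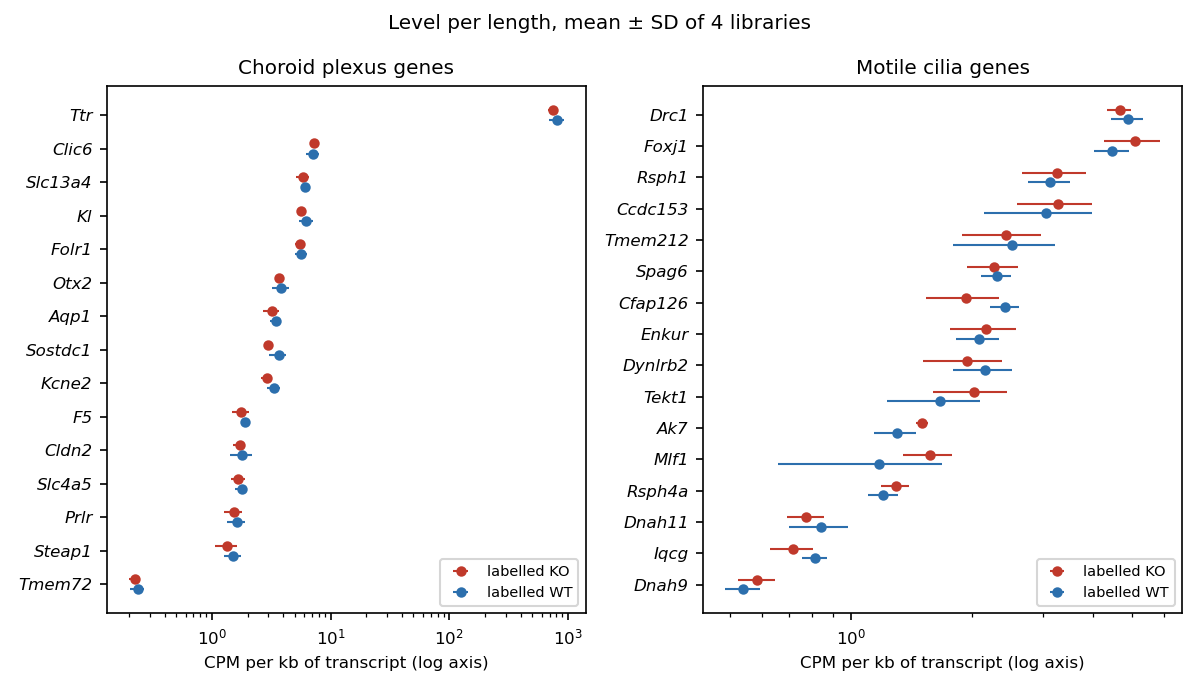
Mean level per kilobase of transcript (CPM per kb, log axis) of each gene in KO (red) and WT (blue) libraries, with bars for the standard deviation of 4 libraries. Ttr stands alone at 743 CPM per kb in KO and 809 CPM per kb in WT, and for most genes the bars of the 2 groups overlap.

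Because the motile cilia genes are known to share the RFX and Foxj1 programme, the 250 bases before their RefSeq starts (GRCm38.p6) were searched for the letters these factors are known to prefer. RefSeq promoters were matched for 12 motile cilia genes and 11 choroid plexus genes. The letters GTTGCC, one arm of the X-box bound by RFX factors, occurred on either strand in 7 of the 12 motile cilia promoters (Ccdc153, Dynlrb2, Tekt1, Drc1, Iqcg, Mlf1 and Enkur). They occurred in 4 of the 11 choroid plexus promoters (Aqp1, Otx2, Kcne2 and Steap1) and in 11.8% of 27025 genes with a promoter. The longer GTTGCCA, which overlaps GTTGCC, occurred in 4 of 12 and in 1 of 11, against 4.19% of genes. These lengths were chosen after matches of several lengths had been seen, so the counts are a description. The forkhead letters GTAAACA occurred in 2 motile cilia promoters (Ak7 and Mlf1), in 1 choroid plexus promoter (Prlr) and in 3.54% of genes. The letters TAATCC, preferred by OTX factors such as Otx2, occurred in 2 motile cilia promoters (Dnah11 and Mlf1), in 1 choroid plexus promoter (Otx2 itself) and in 7.21% of genes. The 4 motile cilia promoters with GTTGCCA, and that of Dynlrb2, are shown over 30 bases, read 5′ to 3′ on the gene's strand. Capitals mark GTTGCC, its reverse complement GGCAAC, and TGTTTAC, the reverse complement of the forkhead letters:
Tekt1, chr11:72361890-72361919, minus strand: agGGCAACgttgcgtccgtccgGTTGCCat
Drc1, chr5:30281363-30281392, plus strand: caggtgactgctttcccttGGCAACggctt
Iqcg, chr16:33056188-33056217, minus strand: cttgcgcgacgcGTTGCCatagctaccgat
Mlf1, chr3:67373974-67374003, plus strand: gccagtgTGTTTACagagGTTGCCatagca
Dynlrb2, chr8:116504952-116504981, plus strand: acttcctgcctgGTTGCCtagcaacggggg
Tekt1 encodes a tektin, a filament protein inside the microtubules of the shaft, and its window held the letters on both strands. Of these 5 promoters only that of Mlf1 held the forkhead letters, and its window was placed to show them together with GTTGCC. A match is no more than the presence of these letters, and no occupancy was measured.

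The main question the design poses is whether these genes differ between the libraries labelled KO and WT. Ttr had 902.7, 966.2, 855.5 and 798.4 CPM in KO libraries, against 1145, 811.7, 934.2 and 946.5 CPM in WT libraries, in the order of replicates 1 to 4. The groups overlapped, and the level of WT replicate 1 lay above all others. The mean was 880.7 ± 71.2 CPM in KO and 959.5 ± 138.1 CPM in WT (SD, n = 4 each). This gave a log2 fold change of -0.12 (SE 0.11, 95% interval -0.38 to 0.13, edgeR adjusted p = 0.724). Over the 70 ways of dividing the libraries, exact permutation gave a two-sided p = 0.429, where 0.0286 is the smallest possible. The position of Ttr is chromosome 18, 20665280 to 20674321 on GRCm38.

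Foxj1 (chromosome 11, 116330704 to 116335399 on GRCm38) had 11.0, 15.9, 12.3 and 13.9 CPM in KO libraries, against 11.3, 10.4, 13.2 and 11.8 CPM in WT libraries. KO replicate 2 was the highest and WT replicate 2 the lowest, with the others mixed. The mean was 13.3 ± 2.11 CPM in KO and 11.7 ± 1.16 CPM in WT. This gave a log2 fold change of 0.18 (SE 0.11, 95% interval -0.05 to 0.41, edgeR adjusted p = 0.524), and exact permutation gave a two-sided p = 0.257.

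None of the 15 choroid plexus genes and none of the 16 motile cilia genes passed an adjusted p of 0.05, where 1.43% of all 15902 tested genes did, 1.14% higher and 0.289% lower in KO libraries. DESeq2 and limma-voom likewise called 0 of each. DESeq2 gave no adjusted p for Steap1, Tmem212, Dynlrb2 and Mlf1, so these genes could not be called by it. At an unadjusted p under 0.05 edgeR had 1 choroid plexus gene and 0 motile cilia genes, against 12.6% of all tested genes. For none of the 31 genes were the groups free of overlap, which held for 7.67% of all tested genes. Of the choroid plexus genes 14 had a fold change below 0 and 1 above it, with a median log2 fold change of -0.09, against 52% below 0 and a median of -0.005 over all tested genes. Of the motile cilia genes 9 were above 0 and 7 below it, against 48% above 0 over all tested genes, with a median of 0.07. This median rests on single libraries, since it was 0.01 without KO replicate 4 or without WT replicate 2, and -0.009 without WT replicate 4. A p that misses the threshold does not show equal levels, and the 95% intervals give the sizes left: across the choroid plexus genes they ran from 0.652-fold (Steap1) to 1.20-fold, and across the motile cilia genes from 0.610-fold (Cfap126) to 1.97-fold (Mlf1).

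**Figure D2:**
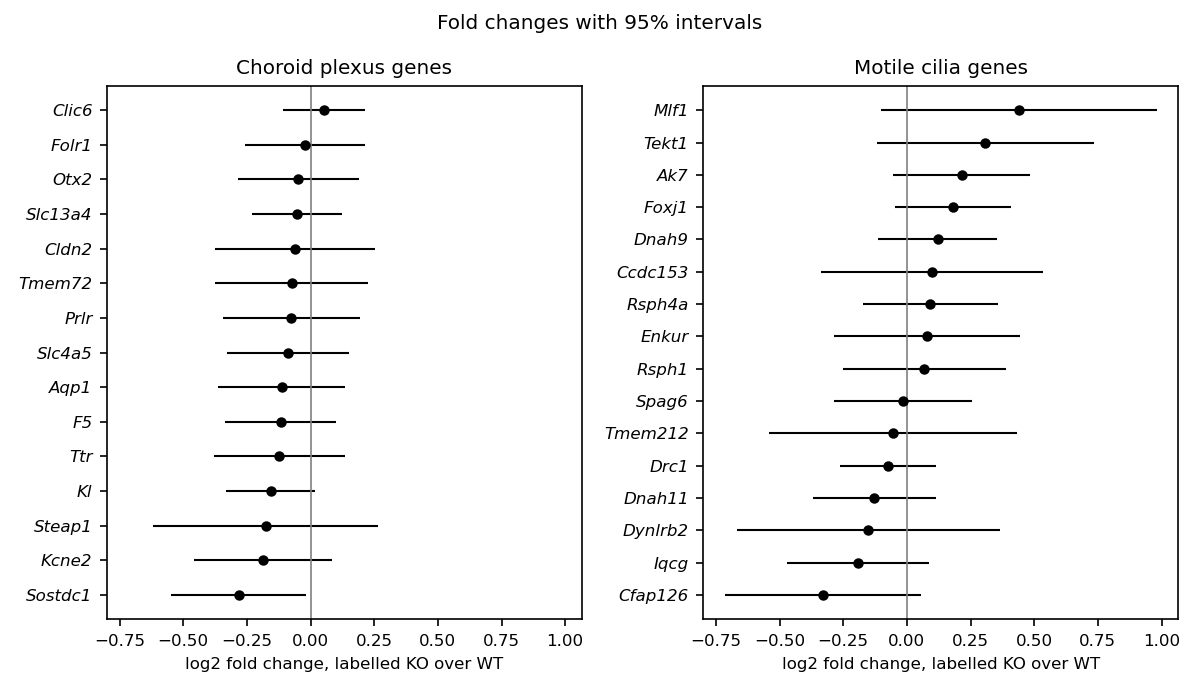
Log2 fold change of the KO over the WT libraries for each gene, with 95% intervals from edgeR's quasi-likelihood fit. The points run from -0.28 to 0.05 for choroid plexus genes and from -0.33 to 0.44 for motile cilia genes, and the interval of Sostdc1 is the one that does not reach 0.

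Among the choroid plexus genes the lowest unadjusted p belonged to Sostdc1, a secreted inhibitor of BMP and Wnt signals. It had 5.74, 5.10, 5.29 and 5.14 CPM in KO libraries, against 7.82, 5.82, 6.84 and 5.50 CPM in WT libraries. KO replicate 1 lay above WT replicate 4, so the groups overlapped by that one pair. Its log2 fold change was -0.28 (SE 0.13, unadjusted p = 0.0374, edgeR adjusted p = 0.358). Kl had 30.9, 26.6, 29.4 and 27.3 CPM in KO libraries, against 38.8, 29.2, 29.97 and 30.4 CPM in WT libraries. Its log2 fold change was -0.16 (SE 0.08, edgeR adjusted p = 0.460), and without WT replicate 1 its size was smaller, at -0.06. Kcne2, the accessory subunit of a potassium channel, had 5.44, 4.90, 5.13 and 4.21 CPM in KO libraries, against 6.64, 5.76, 5.29 and 4.92 CPM in WT libraries (log2 fold change -0.19, edgeR adjusted p = 0.592).

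F5, the coagulation factor V, differed in its pattern. It had 13.6, 10.1, 13.1 and 15.3 CPM in KO libraries, against 13.2, 13.9, 14.1 and 15.1 CPM in WT libraries (log2 fold change -0.12, edgeR adjusted p = 0.699). Its low value in KO replicate 2 stood below the other 7, and WT replicate 1 was not its highest library. The widest range over the libraries among choroid plexus genes was that of Steap1, with 2.01, 1.78, 1.16 and 1.67 CPM in KO libraries, against 2.19, 1.47, 1.90 and 1.88 CPM in WT libraries. Next came Cldn2, the claudin that makes tight junctions leaky to cations, with 4.85, 6.05, 5.18 and 4.74 CPM in KO libraries, against 6.14, 3.80, 6.24 and 5.63 CPM in WT libraries. Both were mixed between the groups, with the lowest Steap1 in KO replicate 3 and the lowest Cldn2 in WT replicate 2.

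The channels, carriers and receptors that complete the choroid plexus group had log2 fold changes between -0.11 and 0.05. They are Aqp1, the water channel, Slc4a5, a sodium bicarbonate cotransporter, Slc13a4, Clic6, Folr1, Prlr, the prolactin receptor, Tmem72, and Otx2, the homeodomain factor that the choroid plexus needs to form. Clic6 was the one with a value above 0, at 27.5 ± 1.27 CPM in KO and 26.6 ± 3.29 CPM in WT (SD, n = 4 each). Prlr had 15.2 ± 2.60 CPM in KO and 16.1 ± 2.71 CPM in WT, and Otx2 had 9.56 ± 0.690 CPM in KO and 9.90 ± 1.59 CPM in WT. For each of these 8 genes the difference between the group means was smaller than the standard deviation of either group.

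Among the motile cilia genes the lowest unadjusted p was that of Cfap126, a protein of the basal body and cilium base. It had 2.01, 2.48, 1.48 and 2.003 CPM in KO libraries, against 2.78, 2.51, 2.45 and 2.27 CPM in WT libraries. KO replicate 2 lay among the WT libraries and the other 3 below them. Its log2 fold change was -0.33 (SE 0.18, edgeR adjusted p = 0.480). Mlf1, named for a fusion gene in myeloid leukaemia and expressed in ciliated cells, had 1.79, 1.59, 1.53 and 2.07 CPM in KO libraries, against 2.02, 0.735, 1.498 and 0.971 CPM in WT libraries. WT replicates 2 and 4 were low, and WT replicate 1 was as high as the KO libraries. Its log2 fold change of 0.44 was the largest of all 31 genes in size (SE 0.26, edgeR adjusted p = 0.513), with 12 to 31 counts per library.

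Ak7, an adenylate kinase of the cilium, had 4.55, 4.78, 4.49 and 4.81 CPM in KO libraries, against 4.54, 3.49, 4.30 and 3.76 CPM in WT libraries. WT replicate 1 reached the level of the KO libraries, and the others lay below them (log2 fold change 0.22, SE 0.13, edgeR adjusted p = 0.523). Tekt1 had 3.43, 2.55, 2.27 and 3.47 CPM in KO libraries, against 3.20, 2.51, 1.70 and 2.20 CPM in WT libraries, and the groups were mixed (log2 fold change 0.31, SE 0.20, edgeR adjusted p = 0.573). The remaining motile cilia genes had log2 fold changes between -0.19 (Iqcg, a subunit of the same regulatory complex as Drc1) and 0.12 (Dnah9). Signs were mixed, none past the threshold: Dnah9 was above 0 and Dnah11 below it at -0.13, and Drc1 was at -0.08. Of the radial spoke genes, Rsph1 and Rsph4a were at 0.07 and 0.09, and Rsph9, Rsph10b, Rsph3a and Rsph3b of the wider list were at -0.14, -0.23, -0.004 and 0.17, all short of the threshold.

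**Figure D3:**
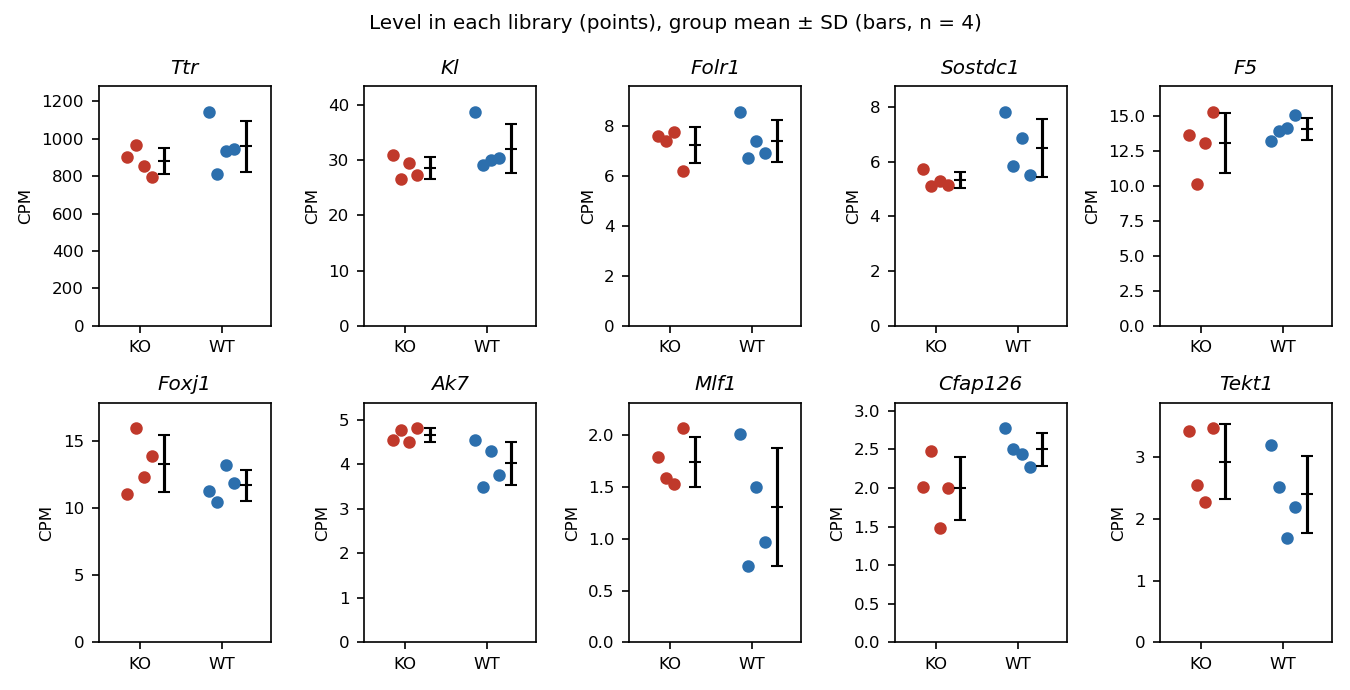
Level (CPM, axes from 0) of 5 choroid plexus genes (top) and 5 motile cilia genes (bottom) in each KO (red) and WT (blue) library, with the group mean ± SD of 4 libraries. In Ttr, Kl, Folr1 and Sostdc1 the highest point is 1 WT library, replicate 1, and in all 10 genes the groups overlap.

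Ttr varied more between libraries than most genes above 100 CPM. The SD of Ttr within groups was 0.17 on the log2 scale, larger than that of 98.6% of the 2484 tested genes above 100 CPM. The highest library exceeded the lowest by 1.44-fold for Ttr and by a median of 1.46-fold over the choroid plexus genes, against 1.26-fold over all tested genes. The motile cilia genes had a median of 1.55-fold. Their counts in a library were low, between 12 and 291, and Mlf1 had the widest range of all 31 genes, at 2.82-fold. Such ranges widen with low counts. The variance within groups was therefore also divided by that of counting alone (Poisson). Its median was 1.23 for the motile cilia genes and 2.45 for the choroid plexus genes, against 1.775 over all tested genes. This ratio also depends on the level, with a median of 5.23 over the tested genes above 100 CPM. The medians of gene groups at unlike levels therefore do not compare their spread alone.

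WT replicate 1 was the highest of the 8 libraries for 11 of the 15 choroid plexus genes, which is 73.3%, against 16.5% of all tested genes. The exceptions were Otx2 and Cldn2, highest in WT replicate 3, F5, highest in KO replicate 4, and Slc13a4, highest in WT replicate 4. The mean log2 deviation of the 15 genes from their own means was 0.24 in WT replicate 1. It was 0.05, -0.09, -0.09 and -0.08 in KO replicates 1 to 4, and -0.09, 0.06 and -0.01 in WT replicates 2 to 4. Without WT replicate 1, 4 of the 15 genes were above 0 in the comparison of KO with WT, and the median log2 fold change was -0.02. Without WT replicate 2, 0 of the 15 were above 0 and the median was -0.14, and without KO replicate 1 the median was also -0.14, against -0.09 with all libraries. The sum of the 14 genes other than Ttr lay at 170.4, 147.8, 160.2 and 157.8 CPM in KO libraries, against 190.6, 155.8, 166.0 and 162.5 CPM in WT libraries. WT replicate 1 was also the shallowest library, and the part of its depth or of the dissection in this pattern was not tested.

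The motile cilia genes did not have 1 library that was highest for most of them. KO replicate 4 was highest for 5, KO replicate 2 for 3, and WT replicate 1 for 2 of 16. WT replicate 2 was the lowest library for 6 of 16, and it was lowest for 10.7% of all tested genes. The mean log2 deviation was -0.01, 0.09, -0.09 and 0.10 in KO replicates 1 to 4, and 0.14, -0.16, 0.06 and -0.12 in WT replicates 1 to 4. WT replicate 2 had the lowest mean of the motile cilia genes. For the choroid plexus genes it was close to KO replicates 2 and 3, with all 3 at -0.09. Without Ttr, KO replicate 2 was lowest for the choroid plexus genes, at -0.097 against -0.088 in WT replicate 2. WT replicate 1 had the highest mean of both gene groups. In KO replicates 2 and 4, by contrast, the motile cilia genes were above their mean and the choroid plexus genes below it.

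**Figure D4:**
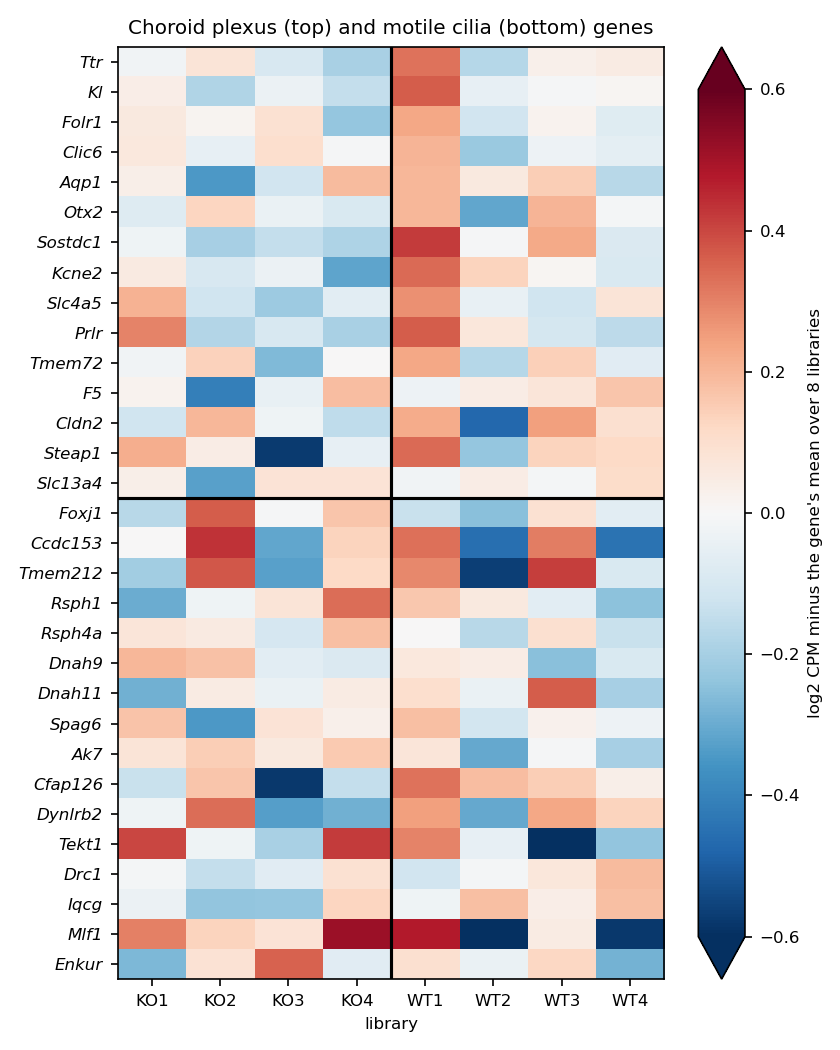
Deviation of the log2 CPM of each gene (rows) from its own mean over the 8 libraries (columns, KO left of WT), in colour from blue (lower) to red (higher). The column of WT replicate 1 is red for most choroid plexus genes, and the lowest values of F5, Slc13a4 and Aqp1 are in KO replicate 2.

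**Figure D5:**
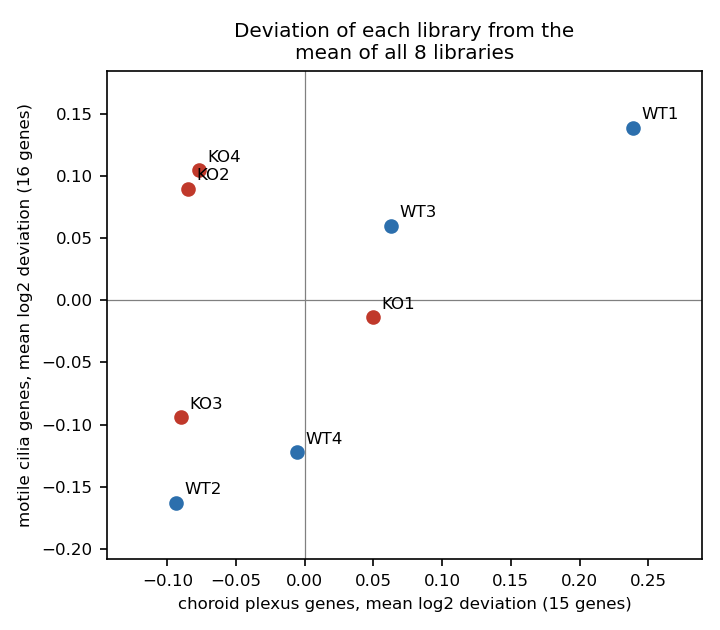
Mean log2 deviation of the 15 choroid plexus genes (x axis) against that of the 16 motile cilia genes (y axis) in each KO (red) and WT (blue) library. WT replicate 1 lies at the top right, at 0.24 and 0.14, and KO replicates 2 and 4 lie at the upper left.

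How closely the choroid plexus genes follow Ttr over the 8 libraries is given as a description, since the genes share the same libraries, depth and scaling. Pearson's r of log2 CPM with Ttr was over 0.5 for 10 of the other 14 genes, against 12.6% of all tested genes, with a median of 0.65. It was 0.79 for Folr1, 0.78 for Otx2 and 0.76 for Cldn2. F5, Slc13a4 and Aqp1 did not follow Ttr, with r of -0.33, -0.38 and -0.02. These 3 genes were lowest in KO replicate 2, the library in which Ttr was the highest of the KO group. Kl and Sostdc1, with r of 0.75 and 0.69, were lowest there as well. The summed level of 14 genes of the meninges was also lowest there, at 180.4 CPM against 216.4 to 284.1 CPM in the other KO libraries and 231.1 to 252.5 CPM in the WT libraries, and its part in these values was not tested. Without WT replicate 1 the median r of the 14 genes was 0.17, and 5 of them were over 0.5, against 10.6% of all tested genes.

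With Foxj1, r was over 0.5 for 4 of the other 15 motile cilia genes, namely Tmem212 (0.68) and Ccdc153 (0.61), which mark ependymal cells, Ak7 (0.62) and Rsph4a (0.56), against 10.6% of all tested genes. The median over the 15 genes was 0.30. Among motile cilia genes Dynlrb2, a light chain of dynein, had the highest r with Ttr, at 0.82. No choroid plexus gene had an r over 0.5 with Foxj1, and the median there was -0.42, or -0.10 without KO replicate 2, so that it rests on that library. The genes most like each marker over the 8 libraries were taken outside the 31 genes, with unnamed gene models left out. For Ttr they were Ermn, Kat2b, Pdcl3, Cmc2, Gngt2, Slc39a12, Slc35a3, Cnot6, Acyp2 and Zc3h12c, with r from 0.97 to 0.93. Slc39a12, a zinc transporter, is the one of these that the wider list of choroid plexus genes also holds. Those most like Foxj1 were Mrap2, Barhl1, Slc2a1, Upf1, Ngb, Nxn, Dvl1, Zdhhc18, Ccdc102a and Stub1, with r from 0.98 to 0.90. Over all tested genes r ran from -0.97 to 0.97 with Ttr and from -0.97 to 0.98 with Foxj1.

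No relation between Ttr and Foxj1, the defining markers of the 2 structures, was detected over the 8 libraries. Pearson's r was -0.006 (exact permutation p = 0.988) and Spearman's rho was 0.10 (exact permutation p = 0.840). Without the 2 libraries farthest from the median of Ttr, KO replicate 4 and WT replicate 1, r was 0.72 (exact permutation p = 0.106) and rho was 0.71 (exact permutation p = 0.136) over 6 libraries. The value thus rests on those libraries, and neither reached the threshold.

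Wider lists of the same structures were read in the same fit. Of 31 further choroid plexus genes tested, 1 rose and 1 fell, against 1.43% of all tested genes called in either direction. Of the 31, 15 had a fold change above 0, against 48% of all tested genes. The median log2 fold change was -0.03, with a range from -0.07 without KO replicate 1 to 0.03 without KO replicate 3. Car12, a membrane carbonic anhydrase, rose to 41.2, 47.5, 48.9 and 45.1 CPM in KO libraries, against 30.7, 24.0, 24.6 and 29.1 CPM in WT libraries, with no overlap. Its log2 fold change was 0.77 (SE 0.08, edgeR adjusted p = 3.24e-05), and its r with Ttr was -0.17. Over the 31 genes the median r with Ttr was 0.35, and 11 were over 0.5, against 12.6% of all tested genes. Without WT replicate 1 the median was 0.20, and 5 were over 0.5, against 10.6%. Which cells the reads of Car12 and of the other genes of this list came from was not tested. Slco1c1, a thyroid hormone transporter that is also made by brain vessels, fell to 57.6 ± 2.75 CPM in KO, against 67.7 ± 4.17 CPM in WT (log2 fold change -0.23, SE 0.05, edgeR adjusted p = 0.0321). This fall missed the threshold in 6 of the 8 fits that left out 1 library, with adjusted p up to 0.130. Enpp2, which makes lysophosphatidic acid and is abundant in the choroid plexus, followed Ttr with an r of 0.87. It had 701.4, 664.8, 618.0 and 631.7 CPM in KO libraries, against 821.7, 636.9, 670.2 and 648.0 CPM in WT libraries, and again WT replicate 1 was the highest. Enpp2 was named after its values were seen.

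Of 74 further motile cilia genes tested, none passed the threshold with edgeR, against 1.43% of all tested genes. A fold change above 0 was found for 31, against 48% of all tested genes, with a median of -0.03. An unadjusted p under 0.05 was found for 3 of the 74, against 12.6% of all tested genes. Those 3 were Ccdc39, which sets the spacing of the spokes and arms along the shaft, at -0.17 (adjusted p = 0.265), Tekt4, another tektin, at 0.54 (adjusted p = 0.311), and Lrriq1 at -0.45 (adjusted p = 0.357). Rfx3, a factor of the RFX family, had 50.2 ± 2.89 CPM in KO and 55.0 ± 5.75 CPM in WT, and Rfx2 had 3.29 ± 0.766 CPM in KO and 3.66 ± 0.458 CPM in WT, both short of the threshold and both named after their values were seen. WT replicate 1 had the highest mean deviation of the 8 libraries in these lists too, at 0.11 for the further choroid plexus genes and 0.09 for the further motile cilia genes.

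Markers of neighbouring cell types were set beside these values. Over all tested genes, 1.43% passed the threshold with edgeR and 12.6% had an unadjusted p under 0.05. None of the 9 tested genes of tanycytes, the ependymal-like cells of the ventricle floor, passed the threshold with edgeR and 2 had an unadjusted p under 0.05, with Col23a1 at -0.32 (adjusted p = 0.0529), Dio2 at -0.14 (adjusted p = 0.284) and Frzb at -0.13 (adjusted p = 0.663). In other fits 1 of the 9 was called, lower in KO: with DESeq2, limma-voom and the replicate block, and without KO replicate 4 or WT replicate 1. Over all tested genes these fits called 311, 301 and 495 of 15902, 146 of 15993 and 175 of 15991, in that order. The tanycyte genes summed to between 196.3 and 205.3 CPM in KO and between 211.9 and 220.6 CPM in WT libraries, and WT replicate 1 was the highest of the 8. None of the 14 meningeal genes passed the threshold with edgeR, and 1 had an unadjusted p under 0.05. Without KO replicate 1, 1 of the 14 was called, lower in KO, against 185 of 15991 tested genes in either direction. Col3a1 was at 0.39 (edgeR adjusted p = 0.347), Ogn at -0.28 (adjusted p = 0.430) and Dcn at -0.15 (adjusted p = 0.434). The mean log2 deviation of the 14 genes was -0.02 in WT replicate 1, the library in which the choroid plexus genes were highest. It was 0.29 and -0.31 in KO replicates 1 and 2.

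None of the 8 astrocyte genes, 8 endothelial genes and 6 blood cell genes passed the threshold with edgeR, and 3, 4 and 0 of them had an unadjusted p under 0.05, against 12.6% of all tested genes. Astrocyte genes were called in other fits, all lower in KO: 3 of the 8 with the replicate block and 1 each with DESeq2, with limma-voom, without KO replicate 1 and without KO replicate 2. Over all tested genes these fits called 495, 311 and 301 of 15902, 185 of 15991 and 324 of 15982, in that order. WT replicate 1 was also the highest library for 4 of the 8 astrocyte genes and had the highest astrocyte sum. The astrocyte genes summed to between 4119 and 4433 CPM in KO and between 4338 and 4504 CPM in WT, the endothelial genes to between 255.2 and 282.4 CPM in KO and between 254.8 and 288.7 CPM in WT, and the blood cell genes to between 54.2 and 86.9 CPM in KO and between 53.7 and 78.3 CPM in WT. The lowest p among the astrocyte genes were those of Slc1a3 (log2 fold change -0.13, adjusted p = 0.0880), Gja1 (-0.15, adjusted p = 0.127) and Aqp4 (-0.17, adjusted p = 0.220), and among the endothelial genes those of Tek (-0.23, adjusted p = 0.200), Flt1 (-0.15, adjusted p = 0.243) and Cdh5 (-0.23, adjusted p = 0.243). Among the blood cell genes they were those of Ptprc, Hba-a2 and Alas2, with adjusted p of 0.841, 0.848 and 0.853. Of the pituitary genes Pou1f1, Pomc and Lhb were tested, with adjusted p of 0.128, 0.816 and 0.990, and Pou1f1 had an unadjusted p under 0.05. Gh, the growth hormone gene, was at 0 in 5 libraries and reached 1.80 CPM in KO replicate 3. Aanat, of the pineal gland, had 0.495 ± 0.180 CPM in KO and 0.713 ± 0.105 CPM in WT (edgeR adjusted p = 0.556). The part of these cell types in the values of the choroid plexus and motile cilia genes was not tested.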

How the data were processed

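The authors deposited expected counts, that is estimated read counts per gene, in one table with a column for each of 8 libraries. Of all values 91.5% were whole within 0.001. RNA was extracted with Trizol, cleaned on columns and sequenced with a stranded mRNA kit, per the labels' protocols. TopHat2 2.0.9, edgeR and the GRCm38 (mm10) build are named, with no role or order, per the submitters' processing notes. The counting program is not given in the sources used here.

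Counts were rounded. edgeR 4.0.16 (R 4.3.3) kept 15902 genes by filterByExpr, scaled libraries by TMM and compared KO with WT by the robust quasi-likelihood test, with Benjamini-Hochberg adjustment over all tested genes. Correlations and deviations were taken from log2 CPM (prior count 2). Positions and lengths came from GENCODE M21 and promoters from RefSeq. Alternatives were DESeq2 1.42.0, limma-voom 3.58.1 with quality weights, other scalings and filters, a replicate block and fits without each library. The fits were tested on simulated data of 15902 genes.

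The members and lists were chosen with earlier results of these data known. Values per library are given for Ttr, Foxj1, the 4 members of each group with the lowest p and the 2 with the widest range. The 10 genes most like each marker were named, unnamed gene models left out, and of every other list those past the threshold, or the 3 with the lowest p. Fold changes are KO over WT. Some further genes of the lists were not analysed here.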

Additional observations from a re-analysis of the deposited data

Results flagged for a closer look

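In 66 groups of 4 libraries, formed by the 31 genes and the 2 gene groups' mean deviations in KO and in WT, the highest or lowest library was compared with the rest by Dixon's test. It set 3 values apart, where chance sets apart about 1 in 20. Slc13a4, the sulfate transporter, was at 16.3 CPM in KO replicate 2, against 20.9, 21.6 and 21.6 CPM in the other KO libraries. The mean log2 deviation of the choroid plexus genes was 0.050 in KO replicate 1, against -0.085, -0.090 and -0.077 in the other KO libraries. Kl was at 38.8 CPM in WT replicate 1, against 29.2, 29.97 and 30.4 CPM in the other WT libraries. The cause of these values was not tested.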

How the results depend on the processing

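The number of choroid plexus and of motile cilia genes past the threshold was 0 in every alternative run, and the lowest adjusted p in any of the 15 alternatives was 0.196 for the choroid plexus and 0.272 for the motile cilia genes. With DESeq2 this leaves out Steap1, Tmem212, Dynlrb2 and Mlf1, which had no adjusted p there. At an unadjusted p under 0.05, DESeq2 had 0 of each and limma-voom 1 of each. Over all tested genes, 228 were called, and 311 with DESeq2 and 301 with limma-voom. The fits without 1 library called between 110 (without WT replicate 3) and 324 genes, with 130 without KO replicate 3 and 146 without KO replicate 4. The fit with the replicate number as a block called 495 genes. Whether the replicate numbers pair the libraries is not given and was not settled by their correlations. The correlations of the deviations of same-numbered libraries were 0.288, 0.0952, -0.0142 and 0.150. That of the replicates numbered 1, at 0.288, was the highest of all pairs, while KO replicate 2 correlated best with WT replicate 3, at 0.229. With all 8 libraries, 215 of 217 log2 fold changes of the 31 genes kept their sign and 2 turned, both with limma-voom, to 0.0067 for Folr1 and 0.0097 for Spag6. Without 1 library, 227 of 248 kept their sign and 21 turned, and none passed the threshold. Those that turned ranged from -0.0626 to 0.0485 for Folr1, -0.0077 to 0.13 for Clic6, -0.15 to 0.0282 for Otx2, -0.19 to 0.0319 for Prlr, -0.14 to 0.0093 for Tmem72, -0.20 to 0.0271 for Cldn2, -0.0896 to 0.0361 for Slc13a4, -0.0428 to 0.26 for Ccdc153, -0.22 to 0.13 for Tmem212, -0.0382 to 0.16 for Rsph1, -0.21 to 0.0031 for Dnah11, -0.0724 to 0.0809 for Spag6 and -0.0515 to 0.16 for Enkur. The log2 fold change of Ttr ranged from -0.20 to -0.02 and that of Foxj1 from 0.08 to 0.26. The correlation of Ttr with Foxj1 was 0.03 with no scaling factors, 0.21 on deviations from the group means, and from -0.28 to 0.36 without 1 library. The cause of these shifts was not tested. Genes with few counts, such as Mlf1 and Dynlrb2, have the widest intervals, and differences inside them were not detectable with these libraries.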
